A study of Mus musculus with 8 samples.

Results

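Klf2, Klf4 and Klf6 are 3 Krüppel-like factor genes that were picked by gene name from the 16434 genes of the deposited expression table, and all 3 were present in it. The table covers bone marrow cells of C57BL/6 mice aged 8 to 10 weeks, with 8 RNA-seq libraries and 1 library in each of 8 groups. The 4 leukaemias arose in a mouse model of N-Myc overexpression and were sorted as GFP+ cells. B220+GFP+ cells represent a B-lineage acute lymphoblastic leukaemia (B-ALL), and CD3+GFP+ cells its T-lineage counterpart (T-ALL). Mac1+Gr1+GFP+ cells were labelled acute myeloid leukaemia (AML), and B220-CD3-Mac1-Gr1-GFP+ cells, which carry none of these antigens, acute undifferentiated leukaemia (AUL). The 4 normal libraries were sorted with the same antigens and without GFP: B cells (B220+), T cells (CD3+), myeloid cells (Mac1+Gr1+) and lineage-negative cells (B220-CD3-Mac1-Gr1-). The labels do not state the promoter that drives N-Myc, how GFP marks the cells or how many mice made up a library.

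Krüppel-like factors are DNA-binding proteins with a C-terminal domain of zinc fingers that recognises GC-rich and CACCC sequences, and they act as activators or repressors. Klf2 keeps naive lymphocytes quiescent and sustains the receptors by which they leave and re-enter lymphoid organs. Klf4 restrains proliferation in several blood lineages, takes part in monocyte differentiation and is a reprogramming factor. Klf6 is a broadly expressed member that is induced quickly by growth factors and inflammatory stimuli.

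Their promoters are shown because the Myc family, whose member N-Myc is high in the leukaemias, binds the E-box CACGTG, and because MEF2 factors are known activators of Klf2. The sequences are from RefSeq on GRCm38.p6, cover up to 250 bases before the RefSeq start site and stop before any transcript start of the annotation. They lie at chr8:72318812-72319032 on the plus strand for Klf2, chr4:55532476-55532725 on the minus strand for Klf4 and chr13:5861239-5861481 on the plus strand for Klf6. Capitals mark the E-box in Klf4 and Klf6 and the MEF2 pattern (CTA, 4 free letters, TAG) in Klf2.
Klf2: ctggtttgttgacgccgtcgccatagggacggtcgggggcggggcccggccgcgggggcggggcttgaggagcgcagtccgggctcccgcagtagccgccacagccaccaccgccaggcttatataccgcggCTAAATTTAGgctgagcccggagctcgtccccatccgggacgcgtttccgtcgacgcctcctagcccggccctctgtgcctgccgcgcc
Klf4: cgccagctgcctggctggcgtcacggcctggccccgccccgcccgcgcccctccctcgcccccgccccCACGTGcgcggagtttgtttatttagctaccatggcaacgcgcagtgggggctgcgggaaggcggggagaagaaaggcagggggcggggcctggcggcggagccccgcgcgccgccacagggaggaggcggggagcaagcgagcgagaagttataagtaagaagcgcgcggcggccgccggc
Klf6: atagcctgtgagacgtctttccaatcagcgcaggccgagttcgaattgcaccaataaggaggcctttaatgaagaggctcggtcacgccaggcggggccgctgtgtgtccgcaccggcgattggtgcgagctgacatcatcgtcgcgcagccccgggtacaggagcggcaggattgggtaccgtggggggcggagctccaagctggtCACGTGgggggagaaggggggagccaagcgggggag

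Both strands were searched for each motif. Klf2 held CTAAATTTAG, 118 to 109 bases before its RefSeq start, a match to the MEF2 pattern that 3.20% of 32851 RefSeq promoters hold in windows of 250 bases. With only A or T at its 4 inner letters, as in Klf2, the pattern occurred in 0.508% of promoters. Klf4 held CACGTG at 182 to 177 bases and Klf6 at 43 to 38 bases before the start, and 6.02% of promoters held it. Among the 9178 promoters with at least 60% G and C the E-box share was 9.32%, and the 3 windows had 71.5%, 74.0% and 64.2% G and C for Klf2, Klf4 and Klf6. All 3 windows held the GC box GGGCGG (2 times in Klf2, 4 times in Klf4, where 1 pair of copies shares a base, and 1 time in Klf6), as did 32.7% of all promoters and 76.5% of those with at least 60% G and C. The letters CACCC and the FOXO motif TGTTTAC were in none of the 3 windows. Of the 8 other family genes with a promoter in the table and at least 10 FPKM in some library, 1 (Klf11) held the E-box and 0 the MEF2 pattern.

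The values are FPKM, fragments scaled to transcript length and library size, made by the authors. Klf2 (ENSMUSG00000055148, mm10 chromosome 8, 72319033 to 72321656), Klf4 (ENSMUSG00000003032, chromosome 4, 55527143 to 55532466) and Klf6 (ENSMUSG00000000078, chromosome 13, 5861489 to 5870393) are protein-coding genes, and no other annotated gene overlaps them. Library totals recovered from the steps of the values ranged from 33818615 to 52280282 fragments. Mycn, the gene of the model, had 719 to 1858 FPKM in the leukaemias and 0.518 to 5.24 in the normal libraries. Each group has 1 library, so intervals on single values or folds are 95% Poisson or binomial intervals that cover counting error only, and comparisons within a gate (cells sorted by the same antigens) carry no p-value and cannot be checked against replicates.

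Klf2 was abundant in every normal library and in 3 of the 4 leukaemias, and it was low in T-ALL. In normal cells it had 463 FPKM in T cells, 380.3 in B cells, 234.7 in myeloid cells and 104.8 in lineage-negative cells. In the leukaemias it had 109.1 in AML, 101.2 in AUL, 87.4 in B-ALL and 4.57 in T-ALL. T-ALL thus stood below all 7 other libraries, while AML lay above the normal lineage-negative library, so the leukaemia and normal ranges overlapped. In the order of levels, the counting interval of the normal lineage-negative library (102.6 to 107) overlapped those of its neighbours AML (106.8 to 111.4) and AUL (98.7 to 103.7), which did not overlap each other. Among all listed genes Klf2 stood at percentile 98.9 in normal T cells and 60.2 in T-ALL.

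Set against the normal cells of its gate, Klf2 was 101.2-fold lower in T-ALL (counting interval 91.3 to 113), on 365 against 31640 fragments. It was 4.35-fold lower in B-ALL (4.24 to 4.47) and 2.15-fold lower in AML (2.10 to 2.21). In AUL it had 0.966 times the level of lineage-negative cells (0.935 to 0.998). The 4 pairs thus ran from a near-equal level to a 101.2-fold difference, and the log2 ratios of FPKM + 1 were -6.38 (T-ALL), -2.11 (B-ALL), -1.10 (AML) and -0.050 (AUL). The AML ratio was -1.96 and the AUL ratio 0.14 when libraries were scaled by their median ratio, so the direction in AUL turned with the scaling. In bulk libraries, fewer cells of a type and less RNA per cell cannot be told apart.

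Klf4 was low in all 4 leukaemias and its groups did not overlap. The normal lineage-negative, B, myeloid and T libraries had 134.8, 95.5, 59.4 and 49.3 FPKM. B-ALL, AUL, AML and T-ALL had 10.5, 4.18, 2.72 and 1.73. The lowest normal library was 4.69-fold above the highest leukaemia, and no neighbours in the order had overlapping counting intervals. Klf4 was 32.2-fold lower in AUL (28.1 to 37.1), 28.5-fold in T-ALL (23.5 to 34.8), 21.9-fold in AML (18.7 to 25.6) and 9.08-fold in B-ALL (8.38 to 9.86). In the lineage-negative gate Klf4 was therefore far apart between leukaemia and normal cells while Klf2 was nearly level.

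Klf6 was also lower in every leukaemia, with no overlap of the groups. For neither Klf4 nor Klf6 is this particular, as Btg1 and Fos, given below, separated too. The share of all genes that separate in this way was not counted. Normal T, myeloid, B and lineage-negative cells had 156.5, 142, 79.8 and 78.6 FPKM, and the last 2 had overlapping counting intervals (77.9 to 81.8 and 76.8 to 80.5). AML, AUL, B-ALL and T-ALL had 26.5, 21.8, 16.7 and 4.18. T-ALL was the lowest library for Klf6, as it was for Klf2 and Klf4. Klf6 was 37.4-fold lower in T-ALL (33.7 to 41.6), 5.36-fold in AML (5.13 to 5.60), 4.78-fold in B-ALL (4.51 to 5.06) and 3.60-fold in AUL (3.41 to 3.81). Fragment numbers of Klf6 are approximate, because its values did not fall on whole fragments with the transcript length used.

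**Figure D1:**
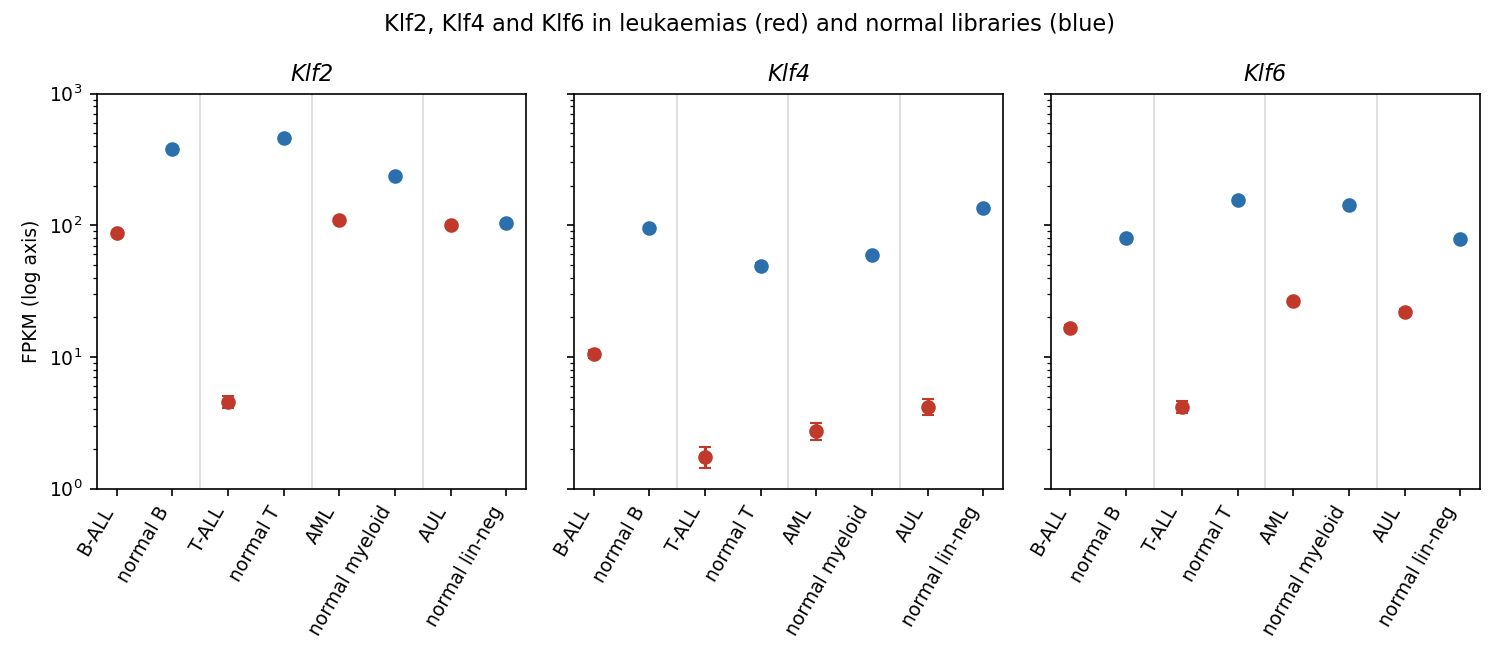
FPKM (log axis) of Klf2, Klf4 and Klf6 in 8 libraries, with leukaemias in red beside the normal library of the same gate in blue; bars are 95% counting intervals and there is 1 library per point. T-ALL is the lowest library in each panel, and Klf2 in AUL (101.2) sits level with normal lineage-negative cells (104.8).

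By the rule of at least 2-fold on the log2(FPKM + 1) scale with at least 1 FPKM in the higher library, 11 of 12 member comparisons were lower in leukaemia. All but Klf2 in AUL were called. The same rule called 21.9% of 10608 genes lower in B-ALL, 24.0% of 10461 in T-ALL, 26.7% of 9965 in AML and 29.5% of 10759 in AUL. Relative to all genes tested, the T-ALL ratios lay far out, with 0.220%, 1.65% and 0.956% of genes below Klf2, Klf4 and Klf6. The AML ratio of Klf2 had 24.6% of genes below it, that of Klf4 3.31% and that of Klf6 9.49%. For Klf2, Klf4 and Klf6 the shares were 6.36%, 2.65% and 5.87% in B-ALL and 53.6%, 1.84% and 15.5% in AUL. The AML counts of 4311 higher and 2662 lower genes became 2836 and 4250 under median-ratio scaling. That scaling moved the median log2 ratio of all genes tested from 0.56 to -0.14 in AML, -0.18 to -0.011 in AUL, 0.025 to -0.12 in T-ALL and -0.019 to -0.13 in B-ALL.

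Across the 4 gates, limma was fitted to 11071 genes with the gate as a block. The mean log2 difference, leukaemia minus normal, was -4.00 ± 0.69 (SD, n = 4 pairs) for Klf4, with a limma adjusted p of 0.0326. For Klf6 it was -2.82 ± 1.42 (SD, n = 4 pairs), with a limma adjusted p of 0.0428. For Klf2 it was -2.41 ± 2.78 (SD, n = 4 pairs), with a limma adjusted p of 0.113, so Klf2 did not pass the threshold of 0.05. Klf4 and Klf6 fell and were lower in 4 of 4 pairs. Klf2 was lower in 4 of 4 pairs too, but its AUL pair, at -0.050, turned to 0.14 under median-ratio scaling. The share of all genes lower in 4 of 4 pairs was not counted. limma called 2.42% of the genes lower and 1.26% higher. An exact permutation test flipping the signs of the 4 pairs (two-sided) gave p = 0.125 for each gene, the smallest that 4 pairs can give.

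These calls lay close to the threshold. Over 10 alternative fits the limma adjusted p ran from 0.0139 to 0.0976 for Klf4 (5 of 10 under 0.05), from 0.0340 to 0.114 for Klf6 (3 of 10) and from 0.0959 to 0.236 for Klf2 (0 of 10). Without the T gate the mean log2 difference of Klf2 was -1.09 and limma gave adjusted p of 0.236, 0.0976 and 0.114 for Klf2, Klf4 and Klf6. Without the myeloid gate limma gave 0.0586 for Klf4 and 0.0764 for Klf6, and without the lineage-negative gate 0.0602 for both.

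The leukaemias also differed among themselves, with no replicate behind any value. Klf2 in T-ALL was 19.1-fold below B-ALL (17.2 to 21.3), 22.1-fold below AUL (19.9 to 24.7) and 23.8-fold below AML (21.5 to 26.6). The other 3 leukaemias lay within 1.25-fold of each other for Klf2. For Klf6, T-ALL was 3.99-fold below B-ALL (3.56 to 4.48), 5.22-fold below AUL and 6.34-fold below AML. For Klf4 the spread was wider at the upper end, where B-ALL was 2.51-fold above AUL (2.15 to 2.95) and 6.07-fold above T-ALL (4.96 to 7.50).

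The proportions of the 3 transcripts differed too. FPKM is per length, so their levels can be set side by side within a library. The summed level of the 3 genes was 318.2 to 668.7 FPKM in normal cells, 114.6 to 138.3 in B-ALL, AML and AUL, and 10.5 in T-ALL. Klf2 made up 76.3%, 78.9% and 79.5% of that sum in B-ALL, AML and AUL, and 43.6% in T-ALL. In normal lineage-negative cells Klf4 was the most abundant of the 3 (42.4%), whereas Klf2 led in the other 7 libraries. Klf2 exceeded Klf4 40.1-fold in AML and 24.2-fold in AUL, against 3.95-fold in normal myeloid cells and 0.778-fold in lineage-negative cells. In T-ALL, Klf2 and Klf6 had overlapping counting intervals (4.12 to 5.07 and 3.77 to 4.63).

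The other Krüppel-like and SP factors, which share the zinc finger domain, gave mixed ratios. Of 23 further family genes on the list 17 were in the table. Among those tested by the 2-fold rule, 1 of 12 was lower and 3 higher in B-ALL, 5 of 12 lower and 1 higher in T-ALL, 4 of 14 lower and 3 higher in AML, and 5 of 14 lower and 0 higher in AUL. Of all genes, 29.5% were called lower in AUL and 26.7% in AML, so the family counts there were near the background, and 24.0% in T-ALL and 21.9% in B-ALL. The family's median log2 ratios were -0.25, -0.74, -0.84 and -0.62, against -0.019, 0.025, 0.56 and -0.18 for all genes tested. Under median-ratio scaling 9 of 14 were lower in AML, with a median of -1.51. All genes moved down there too, with 4250 lower rather than 2662 and a median of -0.14 rather than 0.56. limma called 0 of 13 in either direction, with 4 lower and 0 higher at an unadjusted p under 0.05.

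Klf3, a repressor that recruits the corepressor CtBP, had a profile close to that of Klf2. It had 142, 55.4, 65.4 and 32.3 FPKM in normal T, B, myeloid and lineage-negative cells. In T-ALL, B-ALL, AML and AUL it had 0.874, 23.9, 15.7 and 22.5. T-ALL was again far below the other leukaemias, and the log2 ratios were -6.25 in T-ALL, -1.18 in B-ALL, -1.99 in AML and -0.50 in AUL (limma adjusted p = 0.097). Klf13, a regulator of the chemokine gene Ccl5 in T cells, stayed abundant, at 47.2 FPKM in T-ALL and 192.8 in normal T cells (log2 ratio -2.01), with ratios from -0.91 to -0.69 in the other gates. Klf7 had log2 ratios of -2.68 in T-ALL, -0.55 in B-ALL, -0.92 in AML and -1.20 in AUL.

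Some other family genes were higher in leukaemia in part of the gates. Klf9, a hormone-responsive factor, had 5.70, 8.23 and 11.9 FPKM in B-ALL, T-ALL and AML against 1.81, 2.28 and 1.99 in the normal cells, and 3.88 against 5.11 in the lineage-negative gate. Klf16 had 34.2 FPKM in B-ALL and 17.99 in AML, against 14.0 and 3.96 in normal cells. Klf5 was at least 2-fold higher in B-ALL (2.39 against 0.466 FPKM) and lower in AML (6.65 against 24.8) and AUL (0.292 against 4.86). Klf10 and Klf11, which are induced by TGF-beta, had log2 ratios from -1.05 to 0.54 and from -1.54 to 0.11, and the AML ratio of Klf11 was -0.72 under median-ratio scaling. Sp2 and Sp3 were lower in all 4 gates, with ratios from -0.84 to -0.33 and from -1.33 to -0.37, and Sp4 had ratios from -1.89 to 0.17.

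**Figure D2:**
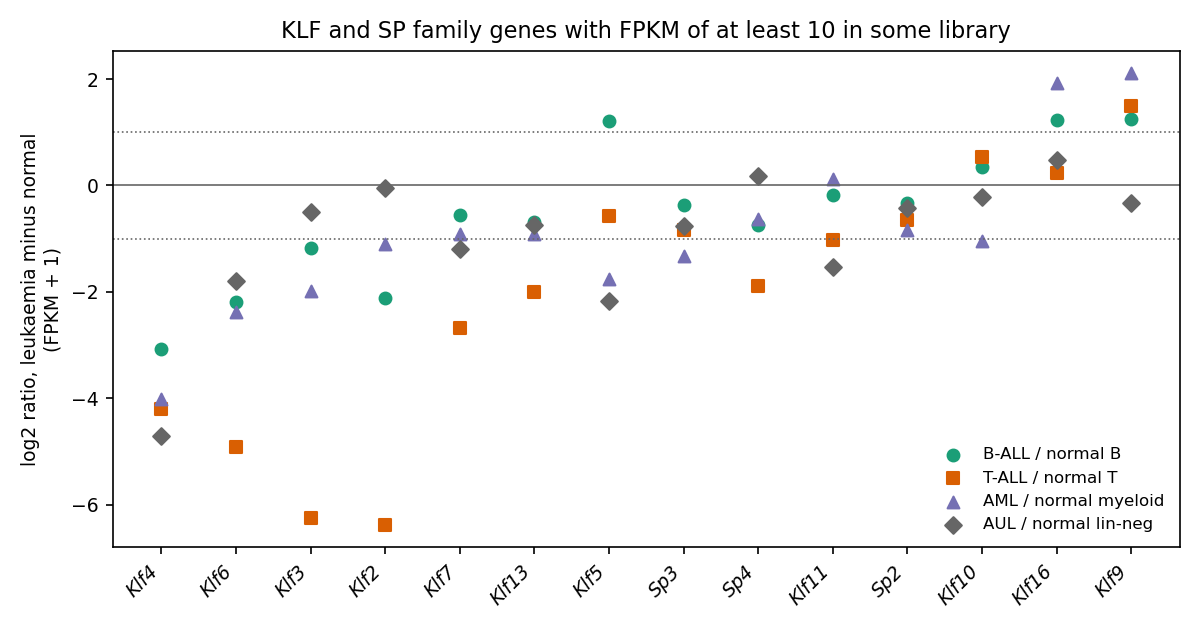
Log2 ratio of FPKM + 1, leukaemia minus normal of the same gate, for 14 family genes ordered by their mean ratio, with 1 marker per gate; dotted lines mark 2-fold. Klf4 and Klf6 are below the lower line in 4 gates, Klf2 and Klf3 spread from -6.38 and -6.25 in T-ALL to -0.050 and -0.50 in AUL, and Klf9 and Klf16 are above the upper line in some gates.

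Over the 8 libraries, the genes whose log2(FPKM + 1) was most like that of each member were named from 7049 other genes with at least 10 FPKM in some library. For Klf2 they were Il10rb, a subunit of the IL-10 receptor (Pearson r = 0.98 over 8 libraries), Klf3 (0.97), Rasa3, a Ras GTPase-activating protein (0.97), Tsc22d3, the glucocorticoid-induced leucine zipper protein (0.97), and Gadd45b, a stress-response gene (0.93). Tsc22d3 had 5.62 FPKM in T-ALL, 57.6 to 66.4 in the other leukaemias and 129.5 to 563.5 in normal cells. Rasa3 had 6.31 in T-ALL, 87.7 to 120.6 in the other leukaemias and 122.1 to 238 in normal cells. All 5 were lowest in T-ALL. These points share gates and libraries, and r is a description here.

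For Klf4 the 5 genes were the adaptor Dok1 (r = 0.98), the interferon-induced Mx1 (0.97), the receptor Cd244 (0.97), the cytokine receptor subunit Csf2rb2 (0.97) and Rps4l (0.97). Mx1 had 11.9 to 20.3 FPKM in normal cells and 0.0288 to 3.81 in the leukaemias, with B-ALL the highest of these as for Klf4. For Klf6 they were Neurl3 (0.98), Susd6 (0.98), Lipa, the lysosomal acid lipase (0.98), the immediate early gene Fos (0.98) and Amica1, an adhesion molecule (0.97). Fos had 607 to 1318 FPKM in normal cells, 111.5 to 159.2 in B-ALL, AML and AUL and 7.55 in T-ALL. Between the members, r was 0.89 for Klf2 and Klf6, 0.85 for Klf4 and Klf6 and 0.68 for Klf2 and Klf4.

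**Figure D3:**
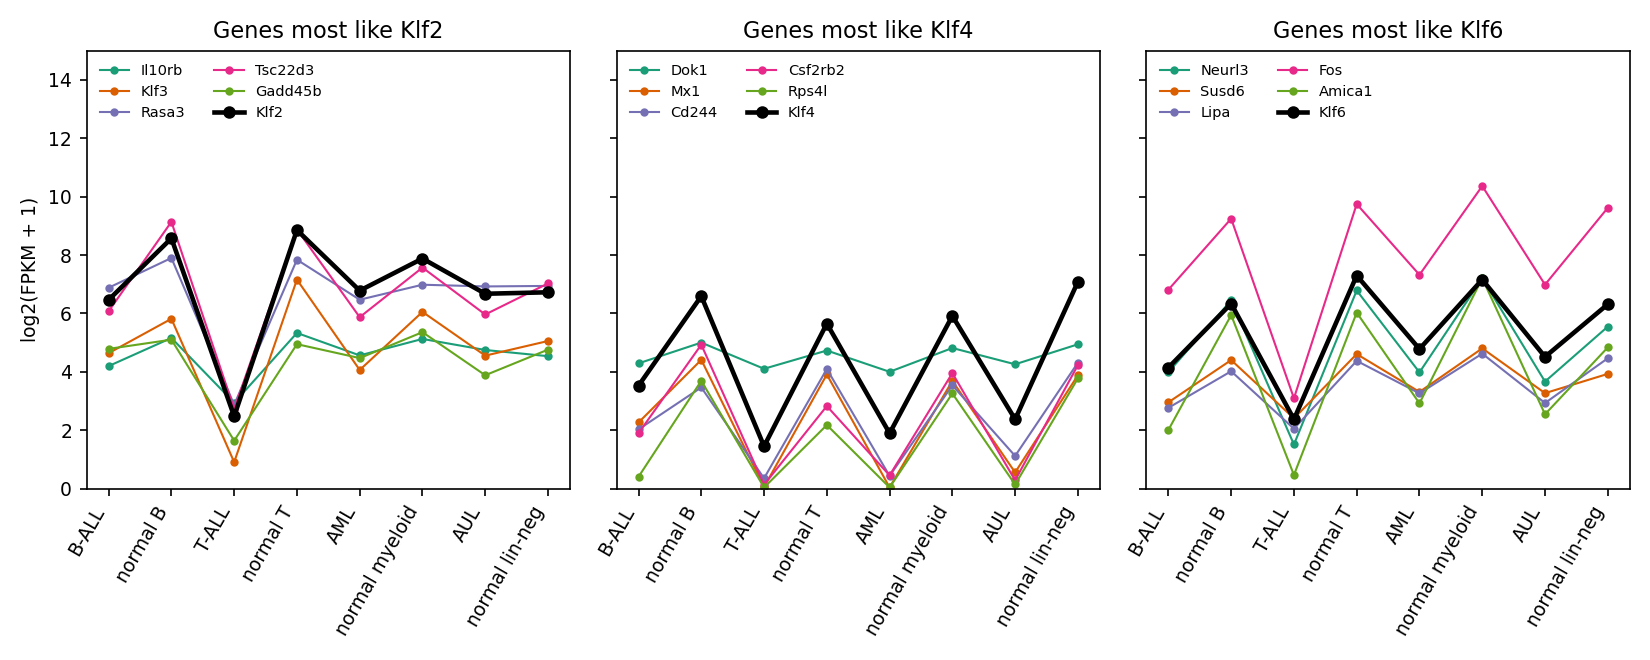
Log2(FPKM + 1) in 8 libraries for each member (black) and the 5 genes most like it (colours), ordered as leukaemia then normal for each gate. The Klf2 set dips in T-ALL, and the Klf4 and Klf6 sets run lower in each leukaemia than in its normal library, with Fos reaching 1318 FPKM in normal myeloid cells.

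Genes of lymphocyte trafficking that Klf2 or Foxo1 regulate were low in T-ALL as well. Their list also holds the cytokine receptor gene Il7r and Foxo1 itself, which is counted in the quiescence list below too. All 7 listed genes were at least 2-fold lower in T-ALL, against 24.0% of all genes. Their median log2 ratio was -4.71, against 0.025 for all genes tested. S1pr1, the receptor for lymphoid egress, had 0.973 FPKM in T-ALL and 96.8 in normal T cells. Ccr7, the lymph node chemokine receptor, had 3.94 against 128.1. In B-ALL 5 of 7 were lower (median -1.94) and in AML 4 of 5 tested (median -1.59), against 21.9% and 26.7% of all genes. In AUL 2 of 7 were lower and 1 higher (median -0.042), near the 29.5% and 13.6% of all genes lower and higher there. The AUL median was 0.15 under median-ratio scaling. Itgb7, the integrin beta7 chain, had 443.4 FPKM in AUL against 186 in lineage-negative cells. limma called 2 of 7 lower and 0 higher across the gates, among them Il7r, the IL-7 receptor (adjusted p = 0.0428). Whether these genes follow the level of Klf2 was not tested, and the gates also differ in cell type.

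The MEK5-ERK5-MEF2 pathway, which induces Klf2, was represented by 5 of 7 listed genes. Mapk7, which encodes ERK5 itself, and Mef2d had no values. Mef2c, which encodes a MEF2 factor, had 154.2 FPKM in normal B cells against 56.5 in B-ALL, and 0.388 in T-ALL against 20.8 in normal T cells. It had 3.68 in AML and 7.29 in AUL against 8.18 and 48.97 (limma adjusted p = 0.0586). The kinase gene Map3k3 had 24.5 to 56.5 FPKM in the leukaemias and 72.3 to 175 in normal cells (limma adjusted p = 0.0576). Map2k5, which encodes MEK5, had 16.6 to 33.8 and 8.58 to 22.4. Mef2a had log2 ratios from -1.35 to -0.041, the last (AUL) turning to 0.15 under median-ratio scaling. By limma, 0 of 5 passed in either direction, with 2 lower and 0 higher at an unadjusted p under 0.05. By the 2-fold rule 1 of 5 was lower in B-ALL, 2 each in AUL and AML and 3 in T-ALL, and Map2k5 was higher in AML. Of all genes, 21.9% to 29.5% were lower in the 4 gates, and the counts of 1 and 2 of 5 are near that share.

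Many quiescence and antiproliferative genes were lower in leukaemia. In T-ALL 12 of 15 tested were at least 2-fold lower (median log2 ratio -2.11), in B-ALL 7 of 14 (-0.999), in AML 8 of 14 (-1.84) and in AUL 8 of 14 (-1.16), against 24.0%, 21.9%, 26.7% and 29.5% of all genes. At least 2-fold higher were 4 in AML, namely Btg3 (log2 ratio 4.44), Pik3ip1 (3.45), Cdkn1c (3.38) and Foxp1 (1.62), 1 each in B-ALL and T-ALL and 0 in AUL. Of all genes, 43.3% were higher in AML, 18.2% in B-ALL, 22.1% in T-ALL and 13.6% in AUL, each above the share in this list. Under median-ratio scaling 3 of 14 were higher and 9 lower in AML (median -2.68), against 2836 and 4250 of all genes. The AML ratio of Foxp1 was then 0.78. limma called 5 of 14 lower and 0 higher. These were Btg1 (mean log2 difference -4.35), Slfn2 (-3.30), Btg2 (-2.81) and the cell-cycle inhibitors Cdkn1b (-2.35) and Cdkn2d (-2.18). Btg1, an antiproliferative gene, had 3.29 to 28.9 FPKM in the leukaemias and 99.2 to 326.6 in normal cells. Cdkn1a, the p21 inhibitor, had 1.03 in T-ALL and 13.5 in AUL against 3.48 and 33.5 in the normal cells, and did not pass (limma adjusted p = 0.11).

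Immediate early genes, which are induced within minutes of stimulation and share that behaviour with Klf6, were mostly lower as well. Of 21 listed, 17 were at least 2-fold lower in B-ALL, 18 in T-ALL, 12 of 20 tested in AML and 15 in AUL, with medians of -1.79, -2.61, -1.89 and -2.06. The shares of all genes lower were 21.9%, 24.0%, 26.7% and 29.5%. At least 2-fold higher were 4 in AUL (Egr3, Nr4a2, Nr4a1 and Egr2), 3 in AML (Fosb, Nr4a2 and Dusp2), 2 in B-ALL (Fosl2 and Nr4a2) and 0 in T-ALL. The shares of all genes higher were 13.6%, 43.3%, 18.2% and 22.1% in the same order. Under median-ratio scaling 0 of 20 were higher in AML and 14 lower, against 2836 and 4250 of all genes. The AML ratios were then 0.46 for Fosb, 0.83 for Nr4a2 and 0.73 for Dusp2. limma called 8 of 21 lower: Fos, Jun, Egr1, Ier2, Dusp1, Zfp36, Btg2 and Atf3. Jun, an AP-1 subunit, had 296.6 FPKM in normal B cells and 15.02 in B-ALL, and 388.4 in normal T cells and 7.54 in T-ALL. It had 372.5 in lineage-negative cells and 10.5 in AUL, and 179.6 in normal myeloid cells and 142.6 in AML. Without that scaling Nr4a2 was higher in 3 gates, with log2 ratios of 2.66 in B-ALL, 1.43 in AML and 2.86 in AUL, and Egr3 had 3.52 in AUL. The labels give no time between isolation and lysis for either set of cells, and the part of cell handling in the levels of the members was not tested.

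With a pseudocount of 5 or no filter, limma called 0 genes of the trafficking, quiescence and immediate early lists. The same counts were 0 without the T, myeloid or lineage-negative gate. With the gate left out of the model they were 0, 2 and 2, and without a trend 1, 3 and 4. Without the B gate the trafficking count was 1, and the quiescence count was 3 under median-ratio scaling.

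**Figure D4:**
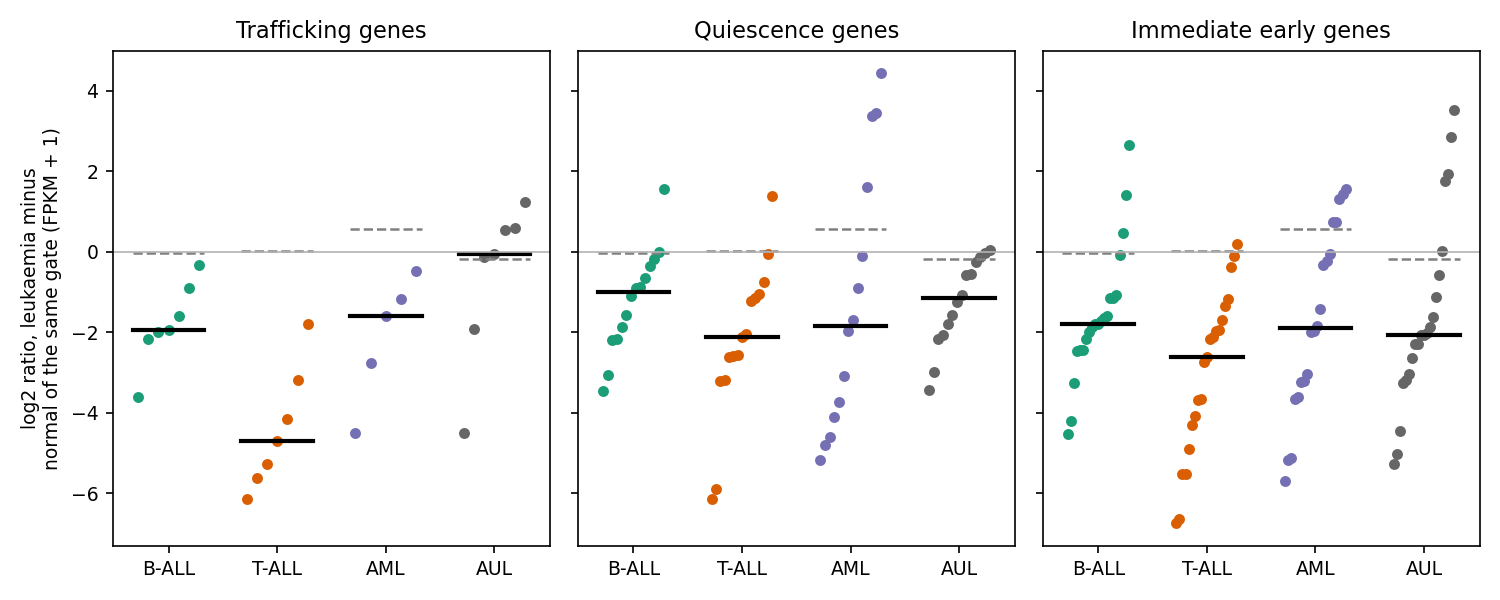
Log2 ratio of FPKM + 1 for each tested gene of 3 lists (points), leukaemia minus normal of the same gate; black bars are list medians and dashed grey bars the median of all genes tested. The trafficking median is -4.71 in T-ALL and -0.042 in AUL, while the immediate early medians lie between -2.61 and -1.79.

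Markers of other cells were present in the normal libraries, and several were lower in the leukaemias, as the members were. The 5 basophil and mast cell markers summed to 2647 FPKM in lineage-negative cells, where Klf4 was highest, to 164.7 to 551.5 in the other normal libraries and to 1.80 to 31.9 in the leukaemias. The 12 monocyte genes, whose cells express Klf4, summed to 539.9 to 12064 FPKM in normal and 195.6 to 1171 in leukaemia libraries. Single genes carried these sums, with Lyz2 at 10858 in normal myeloid cells and Ly6c2 at 1081 in AML. At least 2-fold lower were 11 of 12 in AML, 12 of 12 in AUL, 5 of 10 in T-ALL and 4 of 11 in B-ALL. The shares of all genes were 26.7%, 29.5%, 24.0% and 21.9%. In B-ALL 2 were higher, Cd14 and Itgam. The 5 plasmacytoid dendritic cell markers summed to 1506 in normal B cells against 144.9 in B-ALL. In T-ALL, AML and AUL the sums of these dendritic cell markers were 102.1, 70.8 and 87.2 against 209.2, 72.0 and 359.5 in normal cells. The 5 NK markers summed to 502 in normal T cells and 9.51 in T-ALL, where Klrk1 and Klrd1 were listed at 0. The NK sums in B-ALL, AML and AUL were 25.2, 0.631 and 88.9 against 88.2, 8.19 and 99.9. Of the NK markers, Eomes was higher in AUL (86.7 against 6.70 FPKM) and in B-ALL (20.9 against 5.68). The part of these cells in the levels of Klf2, Klf4 and Klf6 was not tested. limma called 3 of 12 monocyte genes, 3 of 5 basophil and mast cell markers, 3 of 5 NK markers and 1 of 5 plasmacytoid dendritic cell markers lower. It called 0 of the B-cell, T-cell, neutrophil, erythroid, endothelial and plasma cell markers lower, and 2.42% of all genes. At an unadjusted limma p under 0.05, 5 of 5 B-cell markers were lower (median log2 difference -3.83). So were 2 of 2 endothelial and 2 of 5 plasma cell markers tested, while 2 of 5 T-cell markers were higher. With a pseudocount of 5 or no filter limma called 0 genes of the whole table lower. Endothelial cells also express Klf2 and Klf4. The 6 endothelial markers summed to 8.74 to 108 FPKM in normal and 4.10 to 32.004 in leukaemia libraries, mostly as Pecam1, which leukocytes share. Cdh5 had 14.3 FPKM in normal B cells and Kdr 2.29. All 7 neutrophil markers were at least 2-fold higher in B-ALL than in normal B cells (summed 11324 against 2773 FPKM, median log2 ratio 2.15), against 18.2% of all genes. All 7 were lower in AML (10145 against 175830) and AUL (2165 against 20128), against 26.7% and 29.5% of all genes. In the T gate they summed to 1589 in T-ALL and 1033 in normal T cells. The part of neutrophil RNA in the member levels was not tested. In normal and leukaemia libraries the 5 plasma cell markers summed to 134.6 to 1080 and 50.9 to 283.9 FPKM, and the 5 erythroid markers to 27.6 to 88.1 and 2.51 to 136.9.

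The defining markers followed the labels in part. Summed over 5 B-cell markers, normal B cells had 4023 FPKM, B-ALL 1711, normal T cells 610.1 and lineage-negative cells 607.9. For the same B-cell markers T-ALL had 5.83, AUL 3.57, AML 3.77 and normal myeloid cells 34.7. The part of B-cell RNA in the member levels was not tested. The 5 T-cell markers summed to 804.4 in T-ALL and 1506 in normal T cells. AUL had 522.3 for the same T-cell markers, although it was sorted as CD3-negative. AML had 1.63 FPKM of Itgam, which encodes the Mac1 antigen of its gate, against 208.1 in normal myeloid cells. Set against normal T cells rather than lineage-negative cells, AUL had 101.2 against 463 FPKM for Klf2, 4.18 against 49.3 for Klf4 and 21.8 against 156.5 for Klf6.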

How the data were processed

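Per the labels' protocols, poly(A) RNA of sorted cells was sequenced as paired ends on an Illumina HiSeq instrument, and reads holding adaptor sequence or undetermined bases were discarded. Per the submitters' processing notes, STAR, HTSeq and edgeR were the tools (versions not given in the sources used here) and mm10 was the build. The authors deposited FPKM for 16434 genes, and how genes came to be listed there is not stated.

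Values were compared as log2(FPKM + 1). Library totals were the step of FPKM times mean GENCODE vM21 transcript length, which gave whole fragments, within 0.02, for 93.6% to 94.3% of values where a gene has a single transcript. limma 3.58.1 (R 4.3.3; lmFit, eBayes with a trend, Benjamini-Hochberg) was fitted to genes reaching 1 FPKM in 2 or more libraries, with gate as a block and 3 residual degrees of freedom. The pairing comes from the shared sorting antigens, not from animals. The script was tested on simulated data. Alternatives were other pseudocounts, scaling, filters, no block, no trend and each gate left out.

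Named genes were the members, family genes with FPKM of at least 10, members of fixed lists (mostly the most abundant) and the 5 genes most correlated with each member, leaving out receptor segments and predicted genes. The members and lists were chosen with earlier results of these data known. The lists on B, T and NK cells, neutrophils, basophils, plasmacytoid dendritic cells, monocytes, erythroid, endothelial and plasma cells are cell markers. Nothing says that libraries came from separate animals. The p-values measure how steady the difference between leukaemia and normal was from gate to gate, and not a spread between animals. The values of 1 gene of the trafficking list are not reported here.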

Additional observations from a re-analysis of the deposited data

Results flagged for a closer look

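Among 42 sets of 4 values (the leukaemia levels, the normal levels and the log2 ratios of 14 family genes) 3 held a value far from the other 3, and chance flags about 1 in 20. For Klf2 the T-ALL library stood apart from the other leukaemias, with a gap of 0.927 of their whole log2 range. For Klf3 the same library stood apart with a gap of 0.846 of the range. For Klf13 the T-ALL log2 ratio stood apart from the other 3 ratios, with a gap of 0.833.

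Klf5 had log2 ratios of opposite sign between gates: 1.21 in B-ALL, -1.75 in AML and -2.18 in AUL. With 1 library in each group this difference was not tested.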

How the results depend on the processing

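Of 36 log2 ratios of the members recomputed within gates with other pseudocounts or scaling, 35 kept their direction and their side of the 2-fold rule. The exception was Klf2 in AUL, which turned to 0.14 under median-ratio scaling. With a pseudocount of 5 the 2-fold counts were 1061 higher and 1289 lower in B-ALL, 1406 and 1455 in T-ALL, 775 and 1818 in AUL, and 1664 lower in AML. Median-ratio scaling gave 2836 higher and 4250 lower in AML.

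limma called 140 genes higher and 268 lower. It called 309 and 530 with a pseudocount of 0.1, 330 and 528 with median-ratio scaling, 3 and 0 with a pseudocount of 5, and 3 and 0 with no filter on low values. Without a trend 72 were higher. With no replicate block the counts were 8 and 33. Leaving out 1 gate gave 0 to 11 higher and 0 to 162 lower. At an unadjusted p under 0.05 limma had 1784 lower genes with a pseudocount of 5, 2216 with no filter, and 1632 higher and 1920 lower without the myeloid gate, where both adjusted counts were 0.

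The mean log2 difference no longer passed limma for Klf4 (-3.17) and Klf6 (-2.49) with a pseudocount of 5, and for Klf4 (-4.00) and Klf6 (-2.82) with no filter. Klf6 (-2.82) also missed it with no replicate block and without a trend. Leaving out 1 gate gave -4.31 to -3.76 for Klf4, -3.16 to -2.12 for Klf6 and -3.20 to -1.09 for Klf2. Fewer gates leave 2 residual degrees of freedom, and the cause was not tested. Each member rested on at least 110 fragments in each library.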

Other observations

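Partners of Klf4 in the pluripotency network were sparse. Of 7 listed genes 4 were in the table. Pou5f1, which encodes Oct4, had 0.410 FPKM in B-ALL, 0.1998 in AUL and was listed at 0 in the other 6 libraries. Lin28a, an RNA-binding protein of early development, had 105.4 FPKM in normal myeloid cells, 24.5 in AML and 15.1 in lineage-negative cells, with 0.601 to 7.22 in the other 5 libraries. Klf1, the erythroid family member, had 8.24 FPKM in lineage-negative cells and at most 1.17 in the other 7 libraries.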
